A study of Chlamydomonas reinhardtii with 4 samples.

Results

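The genes described here are 22 of the 17741 genes in the tables of Chlamydomonas reinhardtii, a unicellular green alga, and encode pherophorins and hydroxyproline-rich glycoproteins of the cell wall. Their rows were picked by symbol alone, as those whose gene name consists of PHC, GAS, GP, VSP, SAD or ISG followed by a number. The set of symbols itself was chosen with earlier results of these data known. Of the 22, 15 carry PHC symbols (pherophorin genes), 5 carry VSP symbols (serine- and proline-rich wall protein genes) and 2 carry GAS symbols (genes named for expression in gametes), while 0 carry GP, SAD or ISG symbols. The PHC and GAS proteins are known as pherophorins, and the symbols are the only evidence of membership used, since no protein sequence was used here.

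Messenger RNA was sequenced from wild-type cells of strain FACHB-1121 grown in TAP, an acetate medium, under constant agitation and light. Exposed cells received silver nanoparticles (AgNPs) at 0.5 mg/L and were sampled at 2 h and at 12 h. Cells titled CK, taken as the control, were sampled at the same times. Each of the 4 groups holds 1 library, so there is no replicate error, no difference was tested, and each value below describes single libraries by size. Values are FPKM, by name fragments scaled to transcript length and library size, but how these libraries were scaled is not stated. Ratios are log2 ratios of FPKM + 1, which understate the change of low genes. In bulk RNA, fewer cells with a transcript and less of it per cell cannot be told apart.

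The wall of C. reinhardtii holds no cellulose framework but is built of layered glycoproteins rich in hydroxyproline. Pherophorins, first known from the related alga Volvox, have globular ends joined by a hydroxyproline-rich rod. Such proteins enter the secretory pathway, have prolines hydroxylated by prolyl 4-hydroxylases, receive arabinose and galactose chains, and assemble outside the cell. Pherophorin genes are known to respond to wall removal and to the sexual state.

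The libraries were not alike as a whole. The FPKM total was 1252796 with AgNPs against 492502 without them at 2 h, and 1663726 against 1143199 at 12 h, so the 2 h control stood apart. Relative depth, read from how values below 0.2 FPKM are spaced, was lower than in the 2 h control in the others: 0.566 of it (2 h AgNP), 0.363 (12 h AgNP) and 0.566 (12 h control), judged from 13.97%, 10.04% and 12.87% of low genes. This reading takes FPKM as scaled by library size, which no source used here states. Absolute depth was not given, so low values carry no counting interval. The median of the 3271 genes averaging 5 FPKM or more was shifted by 0.48 at 2 h and by 0.44 at 12 h (AgNP over control), by 0.26 between the controls and by 0.20 between the AgNP libraries (12 h over 2 h). Marker genes of a green algal cell were high in every library, from 313 to 821 FPKM for RBCS1 and from 6328 to 26431 for RBCS2, both for the small subunit of Rubisco.

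In 15 of the 22 genes the highest level was that of the 2 h control, and PHC15, a pherophorin gene, was higher with AgNPs at both times. At 2 h, 11 of the 22 genes were at least 2-fold lower with AgNPs, against 1.23% of all 17741 genes, and PHC15 was at least 2-fold higher, against 4.66% of all genes. A smaller difference in the same direction was present at 12 h: 19 of 22 genes stood below their control there (45.5% of all genes) and 18 of 22 at 2 h (45.7% of all genes), but 0 of 22 was at least 2-fold lower at 12 h (0.304% of all genes). That count of 0 depended on the scaling: it was 8 with centred ratios (4.13% of all genes), 5 with equal sums (1.96%), 1 with equal upper quartiles (0.473%) and 3 with a pseudocount of 0.1 (7.43%). In 12 of the 22 genes both AgNP libraries lay below both controls, against 18.1% of all genes, and in PHC15 alone both lay above (15.9% of all genes). At 2 h a level of 5 FPKM was reached by 3 genes with AgNPs and by 12 in the control, and at 12 h by 3 with AgNPs and by 5 in the control. Among all genes those shares were 18.5%, 16.7%, 19% and 17.4%, so the number of the wall genes at that level differed between the libraries where the share of all genes stayed close.

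**Figure D1:**
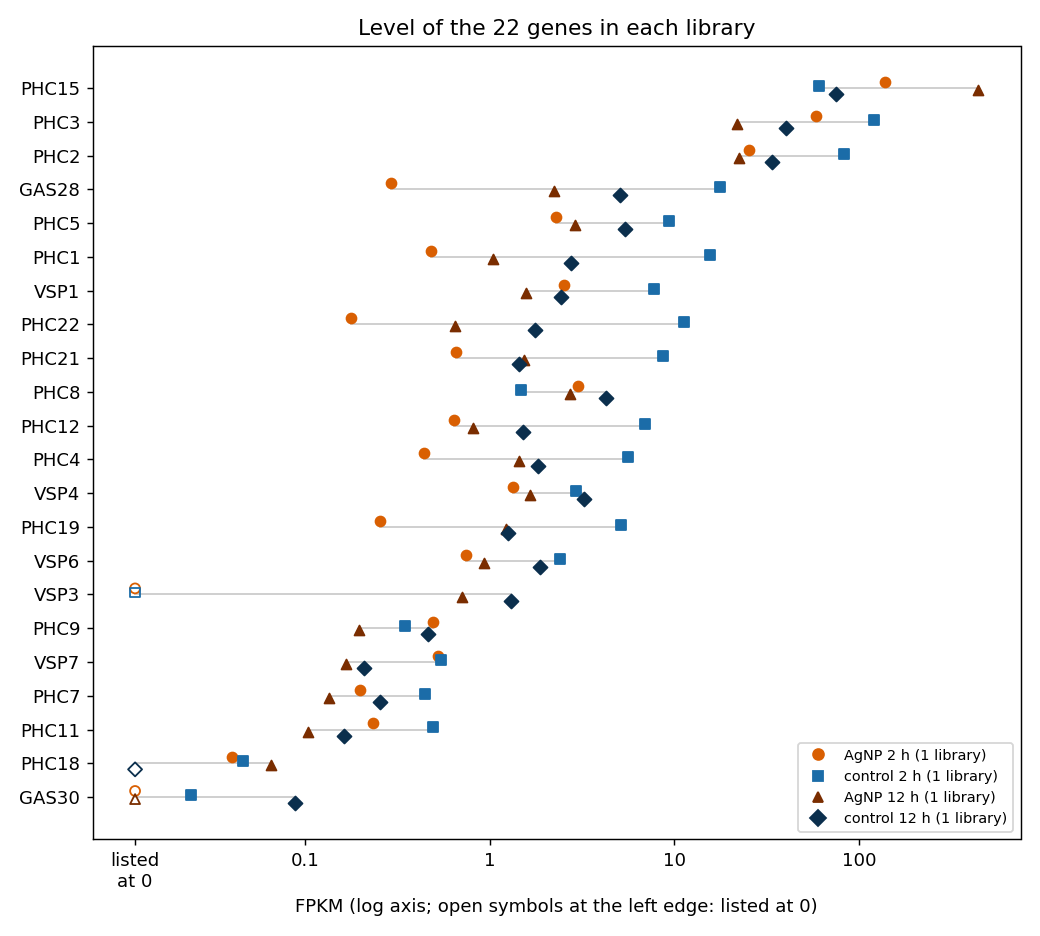
FPKM of each of the 22 genes in each of the 4 libraries on a log axis, ordered by mean level, with open symbols at the left edge for values listed at 0. In 15 of 22 genes the 2 h control holds the highest value, and PHC15 is highest in the 12 h AgNP library at 442 FPKM.

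GAS28, a pherophorin gene known from gametes (Cre11.g481600, chromosome 11, 3554838 to 3557651, annotation version 5.5), had 0.293 FPKM with AgNPs against 17.7 in the control at 2 h, and 2.23 against 5.08 at 12 h. Both AgNP libraries lay below both controls, and the 2 h AgNP value was the lowest of the 4. Its log2 ratio was -3.86 at 2 h and -0.91 at 12 h. That placed it at rank 2 of 17741 genes counted from the lowest ratio at 2 h, and at rank 92 at 12 h. The other gene named for gametes, GAS30, lies on chromosome 11 with 2 genes between and was listed at 0 in both AgNP libraries, at 0.0242 FPKM in the 2 h control and at 0.0883 in the 12 h control, too low for a ratio to be read.

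PHC1 and PHC22 followed GAS28 at ranks 3 and 4. PHC1 (Cre17.g717900, chromosome 17, 2693361 to 2696479) had 0.483 FPKM with AgNPs against 15.6 in the control at 2 h, and 1.04 against 2.76 at 12 h. PHC22 (Cre17.g696700, chromosome 17, 66834 to 69000) had 0.178 FPKM with AgNPs against 11.2 in the control at 2 h, and 0.650 against 1.77 at 12 h. For both genes the AgNP libraries lay below both controls, with log2 ratios at 2 h of -3.48 and -3.38 and at 12 h of -0.88 and -0.75. On plain FPKM the 12 h control stood at 2.65 times the 12 h AgNP level for PHC1, at 2.72 times for PHC22 and at 2.27 times for GAS28. These 3 genes thus passed 2-fold at 12 h on plain FPKM but not on the scale with 1 FPKM added.

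A further 4 pherophorin genes were also among the 14 lowest ratios of all 17741 genes at 2 h. PHC21 (Cre02.g094450, chromosome 2, 2808946 to 2813363) had 0.657 FPKM with AgNPs against 8.67 in the control at 2 h, and 1.53 against 1.43 at 12 h. PHC19 (Cre17.g696500, chromosome 17, 49581 to 52364) had 0.256 against 5.14 FPKM at 2 h and 1.22 against 1.25 at 12 h. In PHC21 and PHC19 the 12 h AgNP and control libraries thus lay close together, with log2 ratios of 0.06 and -0.02. PHC12 (Cre02.g095095, chromosome 2, 3345375 to 3351647) had 0.642 FPKM with AgNPs against 6.92 in the control at 2 h, and 0.812 against 1.51 at 12 h. PHC4 (Cre12.g549000, chromosome 12, 8385044 to 8387899) had 0.442 against 5.63 FPKM at 2 h and 1.45 against 1.82 at 12 h. Both genes kept the AgNP libraries below both controls. The log2 ratios at 2 h of PHC21, PHC19, PHC12 and PHC4 were -2.55, -2.29, -2.27 and -2.20.

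In all, 7 of the 14 genes with the lowest ratio at 2 h belonged to the 22, and 6 of the lowest 10. The length of 14 was chosen after the ranks were seen. Of the other 7, 4 have no symbol and 3 have one: FAP212 (1.11 FPKM with AgNPs and 19.4 in the control at 2 h), a flagellar-associated protein gene, FMG1-B (0.574 and 8.19), for the major glycoprotein of the flagellar membrane, and PRL10 (0.533 and 6.34). The count among the lowest 14 was 7 with centred ratios or equal upper quartiles, 6 with equal sums or with the trend with gene span removed, and 4 with a pseudocount of 0.1 or of 5. It was 0 when the 2 h AgNP library was set against the 12 h control, 0 for the comparison at 12 h, and 0 for the 12 h against the 2 h control.

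**Figure D2:**
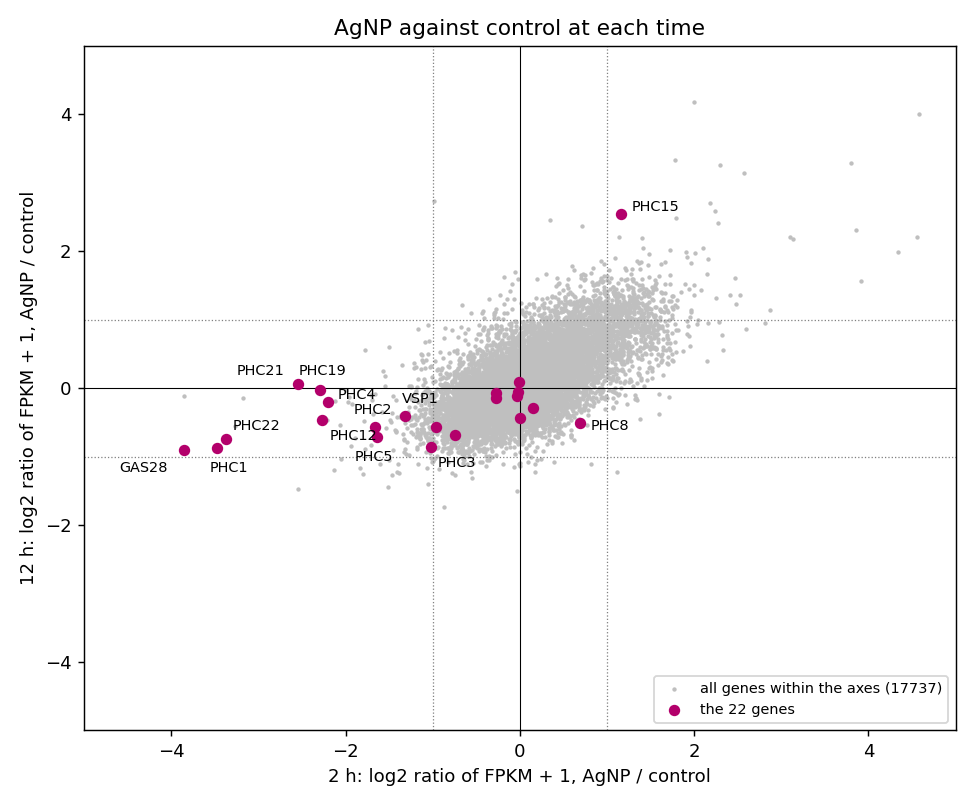
Log2 ratio of FPKM + 1, AgNP over control, at 2 h (horizontal) and at 12 h (vertical) for the 22 genes over all genes, 4 of which lie outside the axes. Dotted lines mark 2-fold, and GAS28, PHC1 and PHC22 lie at the far left while PHC15 lies at the upper right.

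The other 3 pherophorin genes of the 11, among them PHC3 and PHC2, which had the most transcript after PHC15, were lower with AgNPs by smaller factors. PHC3 (Cre06.g278162, chromosome 6, 3784323 to 3787464) had 58.4 FPKM with AgNPs against 119.6 in the control at 2 h, and 21.7 against 40.4 at 12 h. PHC2 (Cre14.g620600, chromosome 14, 1865969 to 1869014) had 25.5 against 82.6 FPKM at 2 h and 22.5 against 33.7 at 12 h. The AgNP libraries lay below both controls in PHC2 but not in PHC3, where the 2 h AgNP value exceeded the 12 h control. PHC5 (Cre05.g238650, chromosome 5, 3034210 to 3039095) had 2.29 FPKM with AgNPs against 9.28 in the control at 2 h, and 2.89 against 5.40 at 12 h. The log2 ratios at 2 h of PHC3, PHC2 and PHC5 were -1.02, -1.66 and -1.64, and those at 12 h were -0.87, -0.57 and -0.72.

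PHC15 (Cre09.g396100, chromosome 9, 1809519 to 1811468) was the most abundant of the 22 by mean level. Its level was 137 FPKM with AgNPs against 60.9 in the control at 2 h, and 442 against 75.2 at 12 h. Both AgNP libraries lay above both controls, with log2 ratios of 1.16 at 2 h and 2.54 at 12 h. At 12 h 3.88% of all genes were at least 2-fold higher. The 12 h ratio of PHC15 ranked 12 from the highest of 17741 genes and ranged from 1.76 (span trend removed) to 2.42 (equal upper quartiles) under the other scalings. The 2 h ratio depended on the scaling: it was 0.68 with centred ratios, 0.40 with the span trend removed and -0.17 with libraries scaled to equal sums, where its sign turned. PHC15 made up 58.3% of the summed FPKM of the 22 genes with AgNPs against 16.9% in the control at 2 h, and 87.3% against 40.7% at 12 h. Without it, the other 21 genes summed to 98.2 FPKM with AgNPs against 298.9 in the control at 2 h, and to 64.2 against 109 at 12 h.

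Among the genes for serine- and proline-rich wall proteins, VSP1 was the only one to reach 5 FPKM in any library. VSP1 (Cre11.g467710, chromosome 11, 1292715 to 1295811) had 2.52 FPKM with AgNPs against 7.76 in the control at 2 h, and 1.58 against 2.42 at 12 h, with log2 ratios of -1.32 and -0.41. VSP4 had 1.34 FPKM with AgNPs against 2.92 in the control at 2 h, and 1.66 against 3.26 at 12 h. VSP6 had 0.746 against 2.41 FPKM at 2 h and 0.928 against 1.86 at 12 h. In VSP4 and VSP6 both AgNP libraries lay below both controls, while in VSP1 the 2 h AgNP value lay just above the 12 h control. VSP6, at -0.97, was the gene just short of 2-fold at 2 h, and PHC3, at -1.02, the gene just past it. VSP3 was listed at 0 in both 2 h libraries and had 0.704 FPKM with AgNPs against 1.30 in the control at 12 h.

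The remaining genes were at low levels. The 10 genes without 5 FPKM in any library ranged from 0 to 3.01 FPKM with AgNPs and from 0 to 2.92 in the control at 2 h, and from 0 to 2.70 and from 0 to 4.26 at 12 h. Of these, PHC8 had the highest level and was the only one above its control at 2 h by more than 1 FPKM, with 3.01 FPKM with AgNPs against 1.48, while at 12 h it had 2.70 against 4.26. In 7 genes (PHC7, PHC9, PHC11, PHC18, VSP3, VSP7 and GAS30) no library reached 1.5 FPKM, and their ratios rest on very low values. No member was listed at 0 in every library.

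Only PHC15, PHC3, PHC2 and GAS28, 4 of the 22 genes, averaged at least 5 FPKM over the libraries. At 2 h 3 of these 4 were at least 2-fold lower with AgNPs, where 1.62% of 3271 genes were, and 1 was higher (22%). GAS28 passes this limit through the 2 h control, since its other 3 libraries averaged 2.53 FPKM. At 12 h 0 of 4 were lower (0.459%) and 1 was higher (16.7%). At an average of at least 1 FPKM, 15 genes entered, of which 11 were lower at 2 h (2.35% of 8033 genes). Genes such as PHC22 and PHC19 pass the lower limit through the 2 h control, so the counts over all 22 without a filter are the ones to read.

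Time was the other axis along which these genes differed. In the controls, 10 of the 22 genes were at least 2-fold lower at 12 h than at 2 h (3.11% of all genes) and 2 were higher (5.76%). With AgNPs 1 gene was at least 2-fold lower at 12 h (2.8% of all genes) and 2 were higher (5.42%). These counts depended on the pseudocount. With 0.1 in place of 1, 7 genes were higher with AgNPs (13.3% of all genes) and 2 lower (10.5%). In the controls 12 were then lower (11.2%) and 2 higher (13.3%). PHC1 and PHC22 had log2 ratios, 12 h over 2 h, of 0.46 and 0.49 with AgNPs and of -2.14 and -2.14 in the controls. GAS28 had 1.32 with AgNPs and -1.62 in the controls, and PHC3 had -1.39 with AgNPs and -1.54 in the controls. PHC3 was thus the gene that stood at least 2-fold lower at 12 h in both series, while GAS28 differed by at least 2-fold in opposite directions. Opposite signs were not particular to GAS28. PHC21, PHC4 and PHC19 had 0.61, 0.76 and 0.82 with AgNPs and -1.99, -1.23 and -1.45 in the controls. With a pseudocount of 0.1, PHC22, PHC21, PHC4 and PHC19 also passed 2-fold in opposite directions. The 2 h comparison of AgNP with control and the comparison of the controls share the 2 h control library, in which 15 of the 22 genes had their highest value (29.3% of all genes), and their counts are no support for each other.

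**Figure D3:**
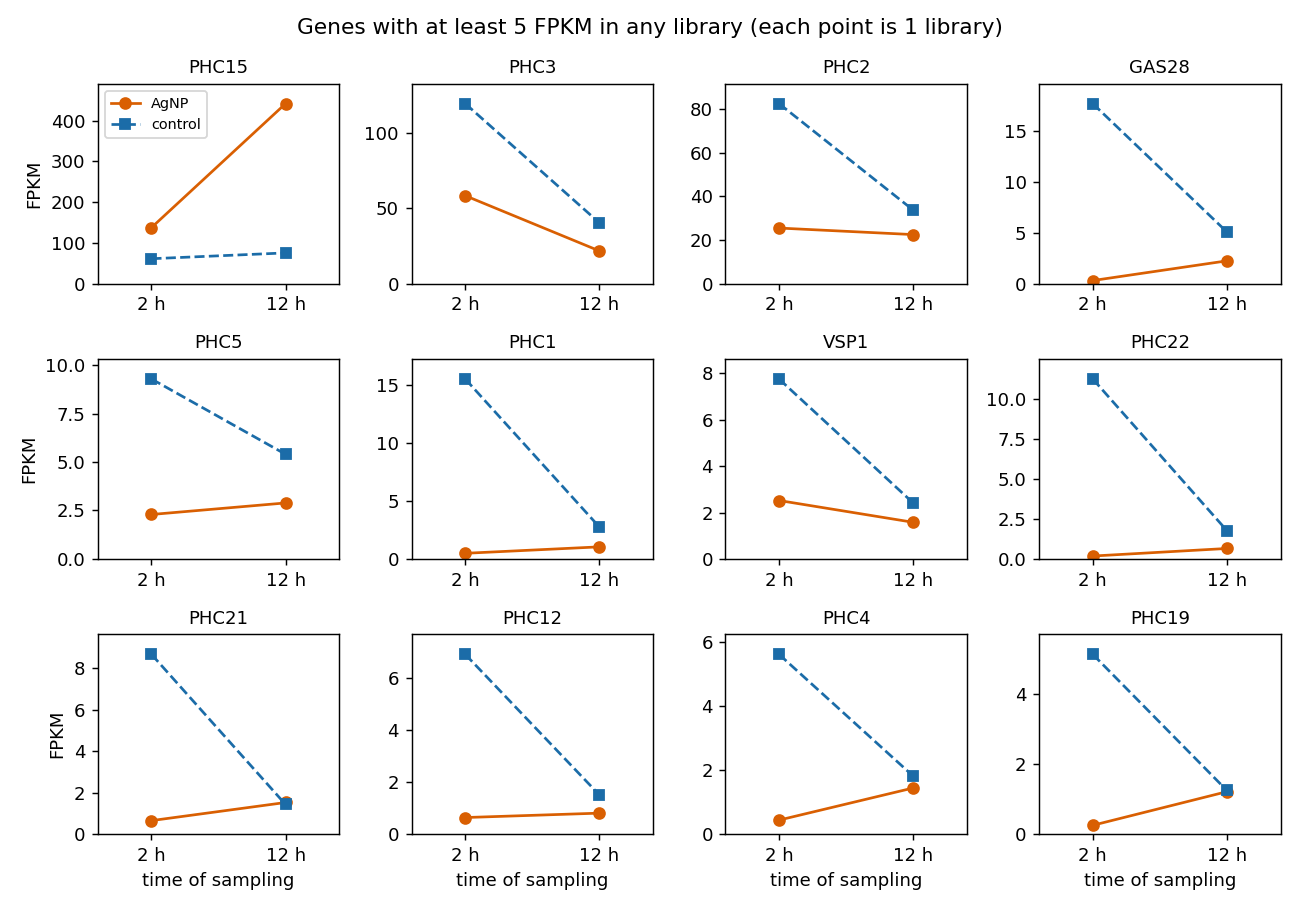
FPKM (linear axes from 0) at 2 h and 12 h of the 12 genes with at least 5 FPKM in any library, 1 library per point, circles for AgNP and squares for control. The 2 h control is the highest point in 11 panels, but 7 of the 12 genes are shown only because that library reached 5 FPKM, so the choice of genes favours it. In PHC15 the 12 h AgNP library is highest.

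Because so much rests on the 2 h control, the 2 h AgNP library was also set against the 12 h control, a comparison that adds a difference in time. Of the 22 genes, 15 lay below the 12 h control, 4 by at least 2-fold (3.42% of all genes), and 0 were at least 2-fold higher (3.86%). GAS28 had a log2 ratio of -2.23 there, PHC1 -1.34 and PHC22 -1.23, and the remaining gene was VSP3, listed at 0 with AgNPs. PHC21, PHC19, PHC12, PHC4, PHC5 and PHC2 lay between -0.97 and -0.39. PHC3 (0.52) and VSP1 (0.043) changed sign. Of the 11 genes at least 2-fold lower against the 2 h control, only GAS28, PHC1 and PHC22 stayed so here. VSP3 was not among the 11. That outcome depended on the 1 FPKM added. On plain FPKM, PHC19 had 0.256 in exposed cells at 2 h and 1.25 in control cells at 12 h. The same values were 0.442 and 1.82 for PHC4, 2.29 and 5.40 for PHC5, 0.642 and 1.51 for PHC12, and 0.657 and 1.43 for PHC21. These genes thus stayed more than 2-fold lower on plain FPKM. For PHC2, PHC3 and VSP1 the 2-fold call rests on the 2 h control on either scale. Each of the 4 scalings tried, with the 2 h control as reference, moves the median of all tested genes down at 2 h, so none of them bears on whether the lower calls would be lost, and the plot of ratios under each scaling gives their values.

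**Figure D4:**
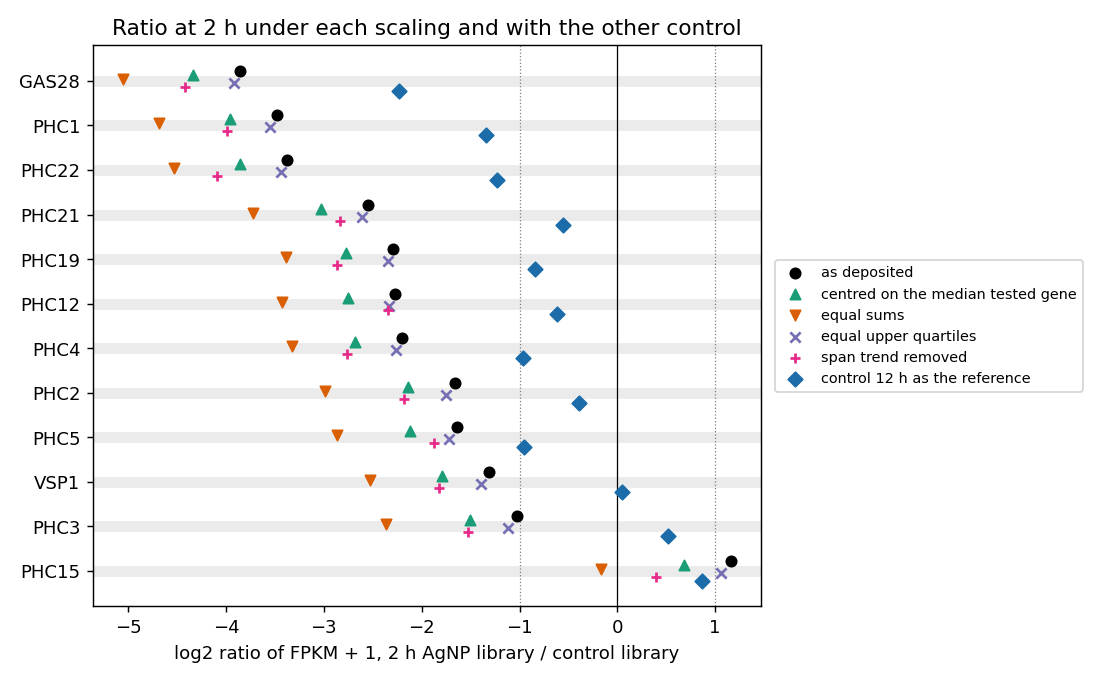
Log2 ratio of FPKM + 1 for the 2 h AgNP library over a control library, for 12 genes, as deposited, under 4 scalings and with the 12 h control as reference, with dotted lines at 2-fold. GAS28 runs from -5.05 with equal sums to -2.23 against the 12 h control, and PHC15 from -0.17 to 1.16.

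The effect of AgNPs differed between the times by at least 2-fold upward (12 h minus 2 h) for 9 of the 22 genes, against 1.23% of all genes, and downward for PHC8 (0.975% of all genes). The largest differences on the log2 scale were 2.94 for GAS28, 2.63 for PHC22, 2.60 for PHC21 and 2.60 for PHC1. PHC15 also differed upward, by 1.38, but as a gene above its controls that stood further above at 12 h. PHC3 differed by 0.15, so its lower level with AgNPs was of like size at 2 h and 12 h. None of these differences has a test, as every effect compares a single exposed library with a single control.

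The 22 genes lie on 9 chromosomes and 1 scaffold, and 5 are on chromosome 17. PHC8 and PHC1 are direct neighbours there and PHC7 follows with 2 genes between, all within 22.9 kb. The 3 differed at 2 h, with log2 ratios of 0.69 for PHC8, -3.48 for PHC1 and -0.27 for PHC7, the last on values below 0.5 FPKM. PHC19 and PHC22, also on chromosome 17 with 4 genes between, had -2.29 and -3.38. Directly beside the 11 lower genes lie 21 genes that are not among the 22. Of these, 1 was at least 2-fold lower at 2 h (1.23% of all genes) and 1 higher (4.66%). These were Cre05.g238687 beside PHC5 (4.78 FPKM with AgNPs and 14.4 in the control) and Cre12.g548955 beside PHC4 (13.1 and 2.61). Within 3 places on each side, 2 of 61 genes were lower (1.23% of all genes) and 7 higher (4.66%). The other lower one was Cre14.g620702 near PHC2 (6.89 and 29.1). These genes were singled out after their values were seen. Near-identical stretches in such a family can share reads, and how the authors' counting divided them is not given.

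**Figure D5:**
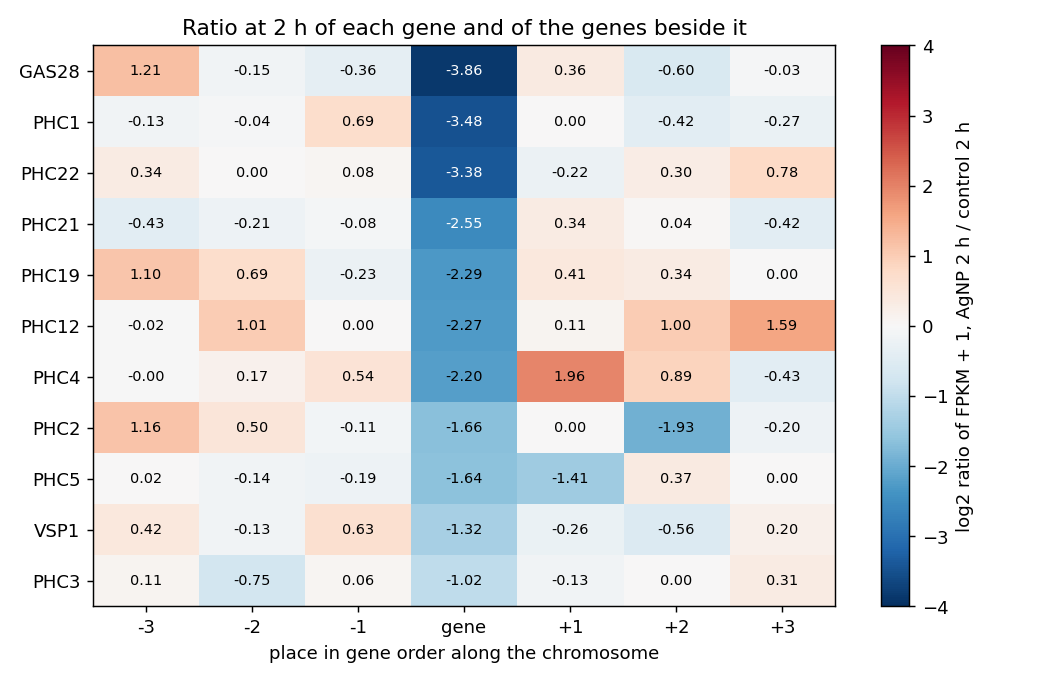
Log2 ratio of FPKM + 1, AgNP over control at 2 h, for the 11 lower genes (centre column) and the 3 genes on each side in gene order. The centre column runs from -3.86 to -1.02, while 2 of the 61 surrounding genes outside the 22 are at or below -1 (1.23% of all genes).

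The 11 lower genes span 2167 to 6273 bp with introns (median 3097), and the other 11 span 1950 to 8372 bp (median 5776). The median was 3202 bp for the 3271 genes averaging 5 FPKM or more and 4362 bp for all 17741 genes. A trend of the ratios with gene span was fitted on the 3271 genes, and its size over all genes was not summarised. Its removal took PHC15, at 1950 bp the shortest of the 22, from 1.16 to 0.40 at 2 h and from 2.54 to 1.76 at 12 h. PHC12, at 6273 bp, went from -2.27 to -2.35 at 2 h. With that trend removed 12 of the 22 genes were at least 2-fold lower at 2 h (6.44% of all genes), 0 higher (1.05%), and 6 lower at 12 h (2.65%).

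Of 15 tested genes on the route by which wall glycoproteins are made, 0 were at least 2-fold lower with AgNPs at 2 h (1.62% of all tested genes) or 12 h (0.459%), a count that so few genes cannot set apart from all genes. The only prolyl 4-hydroxylase gene with a matching symbol, PHX1, had 13.4 FPKM with AgNPs against 6.17 in the control at 2 h, and 19.3 against 6.99 at 12 h, with log2 ratios of 1.00 and 1.35. Of 6 tested genes for entry to the secretory pathway, 4 were at least 2-fold higher at 2 h (22% of all tested genes) and 5 at 12 h (16.7%), with medians of 1.28 and 1.31 against 0.48 and 0.44 for all tested genes. SEC61G, a translocon subunit gene, had log2 ratios of 1.95 at 2 h and 1.03 at 12 h, SPC22, a signal peptidase subunit gene, 1.16 and 1.59, and DAD1, an oligosaccharyltransferase subunit gene, 0.97 and 1.63. These values depended on the scaling: with equal sums PHX1 had -0.21 at 2 h and 0.84 at 12 h, SEC61G 0.61 and 0.49, SPC22 -0.08 and 1.07, and DAD1 -0.35 and 1.09. With the span trend removed PHX1 had 0.82 and 1.29, SEC61G 1.00 and 0.19, SPC22 0.44 and 0.87, and DAD1 0.06 and 0.79. The other tested entry genes then had 0.56 and 0.38 (SEC61B), 0.74 and 0.72 (SPC18), and 0.21 and -1.06 (SEC61A). Of the 6 entry genes only SEC61G at 2 h was thus still at least 2-fold higher. Of 5 tested glycosyltransferase genes 2 were higher at 2 h (GTR20 at 1.25 and GTR22 at 1.21) and 0 at 12 h, and RRA1, whose Arabidopsis namesake acts on arabinose chains of wall proteins, had 0.49 and 0.82. Of 3 nucleotide sugar enzyme genes 1 was higher at 2 h, UGP1 for UDP-glucose pyrophosphorylase at 1.32, with UGD1 at 0.85 and UGD2 at 0.53, and 0 were higher or lower at 12 h. With equal sums GTR20, GTR22 and UGP1 had 0.03, -0.10 and 0.04 at 2 h, and with the span trend removed 0.83, 1.14 and 1.29. The count of 0 lower genes also depended on the scaling at both times. At 2 h GTR25 had 0.17 as deposited and -1.03 with equal sums. At 12 h SEC61A, a translocon subunit gene, had -0.54 as deposited and -1.05 with equal sums. GTR25 had -0.60 at 12 h as deposited and -1.04 with centred ratios.

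The 14 genes of the list of wall-degrading and related proteases, taken by gametolysin-type metalloprotease (MMP) and subtilisin-type (SUB) symbols, were low and did not exceed 3.23 FPKM in any library, and 3 were listed at 0 in all 4. Their summed level was 4.523 FPKM with AgNPs and 5.502 in the control at 2 h, and 3.427 and 4.134 at 12 h.

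Because GAS28 is known from gametes, genes of the gamete and zygote state were read beside it. Of 9 such genes 4 (FUS1, MTA1, EZY1 and ZYS3) were listed at 0 in all 4 libraries. HAP2 and SAG1 did not exceed 0.371 FPKM, NSG13 reached 2.49, and ZYS4, the only one to average 5 FPKM, had 14.6 with AgNPs and 9.86 in the control at 2 h. GSP1, a homeodomain protein gene of plus gametes, had 2.52 FPKM with AgNPs against 6.03 in the control at 2 h, and 0.763 against 1.34 at 12 h, so it also stood highest in the 2 h control. The summed level of the list was 17.5 FPKM with AgNPs and 16.7 in the control at 2 h, and 29.97 and 26.02 at 12 h. ZYS4 carried most of that sum: the other 8 genes summed to 2.88 FPKM with AgNPs and 6.84 in the control at 2 h, and to 3.004 and 4.315 at 12 h. The list's part in the lower level of the wall genes was not tested.

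Some of the cilia genes were also lower with AgNPs at 2 h. Of 246 genes with FAP, IFT or RSP symbols, 30 (12.2%) were at least 2-fold lower with AgNPs at 2 h without a filter, against 1.23% of all genes, and 2 (0.813%) were higher, against 4.66%. At 12 h 1 (0.407%) was lower, against 0.304%, and 5 (2.03%) were higher, against 3.88%. Among the 35 averaging at least 5 FPKM the median log2 ratio was -0.05 at 2 h and 0.47 at 12 h, where the median of all tested genes was 0.48 and 0.44. FAP212, FAP102 and FAP113, which had the largest ratios of the 35 in either direction, had -3.27, -1.90 and -1.81 at 2 h and -0.55, -0.73 and -1.26 at 12 h. FAP212 passes the limit of 5 FPKM through the 2 h control (19.4 FPKM), as its other libraries did not exceed 2.53. FAP113 also passes only with that library (13.8 FPKM), so for both the limit favours a low ratio at 2 h. FAP103 and FAP162, the most abundant of the list and named after their values were seen, had 1.10 and 1.16 at 2 h, but -0.24 and -0.18 with equal sums. They carried the summed level of the list, which was 3146 FPKM with AgNPs against 2046 in the control at 2 h and 5310 against 2992 at 12 h, while without them it was 622 against 887 at 2 h and 1296 against 1048 at 12 h. Whether these shifts and those of the wall genes have a common source was not tested.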

How the data were processed

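The values used were FPKM per gene as deposited by the authors, 1 table per library. Per the submitters' processing notes the tool was Cuffdiff, version not stated. No source used here names the aligner, the genome build, filters or how libraries were scaled. Groups came from the sample titles. Starts in the tables count from 0 and are printed 1-based: 17558 of 17741 starts and all 22 of these genes then equalled the RefSeq gene table of assembly Chlamydomonas_reinhardtii_v5.5, which names no symbols beyond locus tags, so symbols are those of the deposited tables.

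Libraries were compared gene by gene as log2 ratios after adding 1 FPKM, and 2-fold was counted over genes averaging at least 5 FPKM and, as given in the text, over all genes. With 1 library per group no test was run. The genes and lists were chosen with earlier results of these data known. Genes with 5 FPKM in any library are named with all values, and up to 3 tested genes per list. The gene lists were taken by symbol. Alternatives were pseudocounts of 0.1 and 5, means of at least 1 and 20 FPKM, centred ratios, equal sums, equal upper quartiles, 1.5-fold and the 12 h control as reference. No filter and removal of a lowess trend with span (fraction 0.5) were added after the data were seen. The code was tested on simulated data. Versions were matplotlib 3.10.9, statsmodels 0.14.6, numpy 2.4.6 and pandas 2.3.3 under Python 3.11.15.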

Additional observations from a re-analysis of the deposited data

Results flagged for a closer look

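PHC21 was the gene among the 22 whose AgNP effect was at least 2-fold at one time and of opposite sign at the other: its log2 ratio was -2.55 at 2 h, yet 0.06 at 12 h, and the 12 h effect exceeded the 2 h effect by 2.60. No test of that gap was possible with single libraries, and the 12 h value is close to 0 (-0.38 with centred ratios and -0.25 with equal sums, where the signs match).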

How the results depend on the processing

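Counts over genes averaging at least 5 FPKM rest on 4 genes. For AgNPs at 2 h, 1 gene was higher, but 0 with centred ratios, equal sums, the span trend removed or the 12 h control as reference; 3 were lower, but 11 with a mean of at least 1 FPKM or no filter and 1 against the 12 h control. For AgNPs at 12 h, 0 genes were lower, but 1 with a pseudocount of 0.1 or equal upper quartiles, 2 at 1.5-fold and 3 with centred ratios, equal sums or the span trend removed. Between the controls, 0 were higher and 3 lower, but 1 and 10 with a mean of at least 1 FPKM, and 2 and 10 without a filter. Between the AgNP libraries, 2 were higher, but 1 with a pseudocount of 5, a mean of at least 20 FPKM or equal sums. For the difference of the effects, 3 were upward and 0 downward, but 9 and 1 with a mean of at least 1 FPKM or no filter. Among ratios at least 2-fold as deposited, that of PHC15 at 2 h changed sign with equal sums (-0.17). Those of PHC3 (0.52) and VSP1 (0.043) at 2 h did so against the 12 h control. Of 300 ratios recomputed for named genes, 252 stayed on their side of 2-fold, 45 crossed it, and the 3 above reversed. Ratios inside 2-fold as deposited could change sign and still count as having stayed. Examples are PHC21 at 12 h (0.06, and -0.38 with centred ratios) and PHC15 between the controls (0.30, and -0.90 with equal sums). Over all 22 genes the number lower at 2 h was 11 as deposited (1.23% of all genes), 13 with centred ratios (8.43%), equal sums (27.4%) or a pseudocount of 0.1 (9.73%), 12 with equal upper quartiles (1.59%) or the span trend removed (6.44%), and 6 with a pseudocount of 5 (0.175%). A fit with the 2 times as pairs was not run. Low values limit the precision. The relative depth read from their spacing was lowest in the 12 h AgNP library, an estimate that depends on a scaling no source used here states.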
